A study of Mus musculus with 10 samples.

Results

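The 10 genes described here encode proteins of the acrosome or of the machinery that binds sperm to the egg: Acr, Acrbp, Spaca1, Spaca3, Zpbp, Zpbp2, Izumo1, Spam1, Zp3r and Spesp1. They were chosen by name, and each value is the sum over the RefSeq mRNA transcripts (NM_ identifiers) of a gene. All 10 occurred in the deposited tables, among 16082 genes with a known mRNA and 69572 genes of any class, known and predicted lncRNAs included. In these tables the 10 genes accounted for 39.1 to 57.6 counts per 1000000 counts on all genes (CPM) in testes, and for 0 to 11.3 CPM in sperm. Acrbp was the most abundant of them in all 4 testes samples, 6 of the 10 were listed in no sperm pool, and of the 3 detected in cadmium sperm only Zpbp lay inside the range of the cadmium testes.

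The libraries were 4 from control sperm, 2 from control testes, 2 from sperm of cadmium-exposed mice and 2 from testes of such mice. The labels describe the mice as C57BL/6 of 3 to 5 months, all of them males. The methods text names the substrain C57BL/6J and differs from the labels in the age and number of mice. The cadmium arm of 50 mice received 1 intraperitoneal injection of CdCl2 at 3 mg/kg, the control arm of 50 mice received saline, and both were killed at day 35. The sperm came from the vas deferens and caudal epididymis and were pooled over mice, so a pool averages over animals, and testes were whole tissue. By the methods text the control testes were taken from the mice that gave the control sperm pools, but no source says which testes sample matches which pool, so the tests took sperm and testes as separate samples. By the methods text the control mice were divided into 4 groups, 1 for each sperm pool. The study calls its sperm pools and its 2 testes samples biological replicates. The labels do not tie a sample to single animals, in the cadmium arm included. The p-values thus measure only the spread between these samples, which in the cadmium arm may be technical.

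The acrosome is a vesicle that forms from the Golgi apparatus over the nucleus of the round spermatid and empties its content near the egg. Its genes are mostly transcribed in late spermatocytes and in haploid spermatids, before the chromatin is packed with protamines and transcription stops, so that mature sperm carry the proteins and only remnants of the mRNAs. The testis holds the cells that make these mRNAs beside spermatogonia, Sertoli cells, Leydig cells and blood cells, and in bulk RNA fewer cells of a type and less RNA per cell cannot be told apart.

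Total expected counts, which are estimates of the fragments from each transcript, ran from 366455 to 1058017 in the control sperm pools, from 1155491 to 1254477 in cadmium sperm and from 2606086 to 2866856 in testes. NM_ genes held between 9.15% and 13.6% of them, and the number of NM_ genes listed was 1552 to 6733 in control sperm and 11537 to 12250 in testes. A gene listed at 0 can thus be a gene below the reach of the sample: 3 counts, taken as the smallest share that a sample can show, came to 8.19 CPM in control sperm pool 3 and 1.05 CPM in control testes 1. Control sperm pool 1 was left out of the tests, as the study did, and its values are given. The haploid spermatid markers were present in sperm, with 3 to 8 of 10 listed and a summed FPKM (fragments per kilobase of transcript and per 1000000 mapped fragments) of 237.9 to 464.6, against 9 or 10 listed and 490.3 to 598.6 in testes. Most of the sperm value was Prm2, at 183.7 to 438.2 FPKM. Among other cell types, the 7 spermatocyte markers in the tables were at 0 in all 4 control sperm pools, at 3.18 and 0 FPKM in cadmium sperm, the former all Sycp3, and at 3.15 to 7.69 FPKM in testes. Leydig markers summed to 0 to 27.5 FPKM in sperm, the highest being Star in control sperm pool 3, and to 15.6 to 22.2 in testes. Epithelial markers summed to 4.17 to 13.0 FPKM in sperm and 6.06 to 16.1 in testes, with Cdh1 at 0 in the control sperm pools and at 0.20 and 0.54 in cadmium sperm. Epcam was at 0 to 6.77 FPKM in control sperm, 4.26 and 3.14 in cadmium sperm, and 2.09 to 4.94 in testes. Krt18 was at 0 to 5.77 FPKM in control sperm, 2.53 and 2.92 in cadmium sperm, and 0 to 0.26 in testes. Of the 4 epithelial markers tested in each arm, edgeR (described below) called Krt18 higher in sperm in both and 0 lower. Krt18 reached the expression filter of that test only through sperm, which fixed the direction of any call. Sperm held 6 counts and testes 1 in the control comparison, against 9 and 0 in the cadmium comparison. The adjusted p of Krt18 in edgeR was 0.0490 in control and 0.000837 in cadmium mice. Sertoli markers reached at most 0.96 FPKM in sperm and 3.03 in testes, leukocyte markers 5.30 and 3.84, and the 1 red blood cell marker in the tables, Alas2, 2.22 and 0.92. Spermatogonial markers summed to 0.43 to 3.75 FPKM in sperm and 20.4 to 28.4 in testes, and most of the testes sum was 1 gene, Gfra1, at 19.2 to 27.0 FPKM. Uchl1 of the same list was at 1.56 and 0.72 FPKM in cadmium sperm and at 0 to 0.34 in testes.

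The promoters of the 3 most abundant members and of Zpbp are shown because these 4 genes carry the contrast between testes and sperm: in the first 3 every testes value was above every sperm value, and in Zpbp the values overlapped. Each stretch is 280 bases from RefSeq on GRCm38.p6, read 5′ to 3′ along the gene, with 250 bases before the annotated start and 30 after it. Capitals mark TGACG, the core of the cAMP response element (CRE), and GGGCGG, the GC box, each on either strand, where the reverse strand reads CGTCA and CCGCCC.

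Acrbp (chr6:125049677-125049956, plus strand): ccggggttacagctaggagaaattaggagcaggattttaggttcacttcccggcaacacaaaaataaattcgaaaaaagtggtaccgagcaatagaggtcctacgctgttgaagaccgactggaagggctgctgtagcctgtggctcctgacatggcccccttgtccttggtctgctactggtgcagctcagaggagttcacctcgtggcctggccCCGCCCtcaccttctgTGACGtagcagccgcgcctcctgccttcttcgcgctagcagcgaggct
Spaca1 (chr4:34050036-34050315, minus strand): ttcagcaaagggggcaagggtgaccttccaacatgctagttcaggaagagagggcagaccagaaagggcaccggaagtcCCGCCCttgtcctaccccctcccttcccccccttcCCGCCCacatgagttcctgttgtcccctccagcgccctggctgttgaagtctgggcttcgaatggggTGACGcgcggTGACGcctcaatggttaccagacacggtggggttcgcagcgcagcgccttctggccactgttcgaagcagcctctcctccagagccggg
Spesp1 (chr9:62282150-62282429, minus strand): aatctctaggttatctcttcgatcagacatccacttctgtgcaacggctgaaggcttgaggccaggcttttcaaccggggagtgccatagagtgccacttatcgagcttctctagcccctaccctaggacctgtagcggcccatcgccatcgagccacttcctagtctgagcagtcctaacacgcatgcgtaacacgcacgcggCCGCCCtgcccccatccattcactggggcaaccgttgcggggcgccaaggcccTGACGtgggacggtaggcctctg
Zpbp (chr11:11462390-11462669, minus strand): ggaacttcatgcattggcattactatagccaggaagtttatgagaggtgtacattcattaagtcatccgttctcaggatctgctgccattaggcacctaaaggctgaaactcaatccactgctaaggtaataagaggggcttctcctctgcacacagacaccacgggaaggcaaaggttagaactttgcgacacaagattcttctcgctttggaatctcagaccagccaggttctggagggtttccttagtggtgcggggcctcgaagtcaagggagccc

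The CRE is bound by factors of the CREB and CREM family, and CREM is a known activator of genes in round spermatids. In Acrbp the CRE core began 18 bases before the annotated start and the GC box 34 bases before it. Spaca1 held 2 such cores, which began 69 and 59 bases before the start, and 2 GC boxes farther upstream. In Spesp1 the core began at base 8 after the start, and the Zpbp stretch held neither motif. The Zpbp stretch ends at 11462669, inside the span of the gene at chr11:11279624-11464223. The sequence before the outer end of that span was not examined, so motifs there are unknown. In windows of 300 bases, 250 before and 50 after the start, the core was in 6 of the 9 members that the promoter table held (Acrbp, Spaca1, Spaca3, Zpbp2, Izumo1 and Spesp1), against 23.0% of all 27025 genes. By window it was in 8 of their 11, against 20.8% of all 32851. Spaca1 and Spaca3 have 2 overlapping windows each, so their sites count more than once by window. The GC box was in 5 of the 9 members, against 38.2% of all genes, and in 6 of their 11 windows, against 35.7% of all windows. The full palindrome TGACGTCA, which contains the core on both strands, was in the Izumo1 window alone, 96 bases before the start, and in 1.79% of all windows. The TATA box, TATAAA or TTTATA, was in none of the member windows and in 13.6% of all. Acr had no entry. A match is a run of letters and does not show that a factor binds there.

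**Figure D1:**
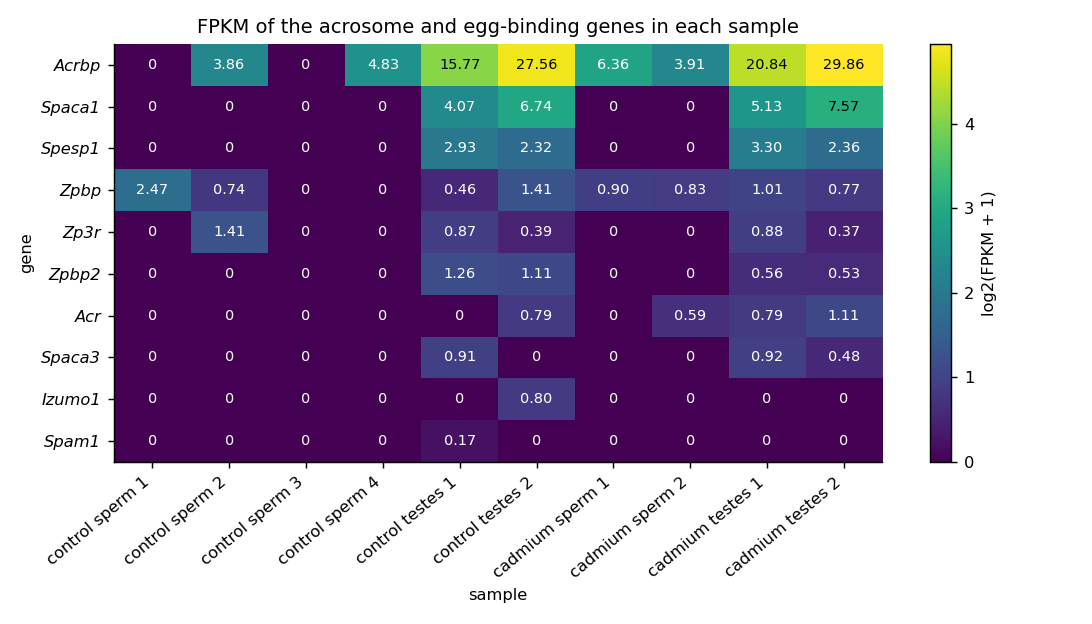
FPKM of the 10 genes (rows, ordered by their mean) in the 10 samples (columns), with the value printed in each cell and log2(FPKM + 1) as colour; 0 means that the sample did not list the gene. Acrbp, Spaca1 and Spesp1 fill the testes columns at 2.32 to 29.9 FPKM, and most sperm cells are at 0.

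Acrbp encodes the proacrosin-binding protein, which keeps the protease proacrosin in its inactive form and packs it into the acrosomal granule. Its gene lies on chr6:125049927-125063265. It measured 15.8 and 27.6 FPKM in control testes and 20.8 and 29.9 FPKM in cadmium testes, above at least 96.6% of the NM_ genes listed in each of these samples. In sperm it was listed at 0, 3.86, 0 and 4.83 FPKM in control pools 1 to 4, and at 6.36 and 3.91 FPKM in cadmium sperm. Every sperm value was thus below every testes value. The sperm values rested on 5 and 3 counts in the 2 control pools that listed it and on 9 and 6 in cadmium sperm, against 57 to 98 counts in testes. Nearly all of it was estimated as the shorter of its 2 transcripts, of 1259 bases, and the longer one, of 1913 bases, appeared only in control testes 1, with 5.8 of 57 counts. Acrbp made up 59.6% to 69.4% of the summed FPKM of the 10 genes in testes.

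Acr encodes acrosin itself, the trypsin-like protease of the acrosome (chr15:89568326-89578853). It was far below its binding partner, at 0 and 0.79 FPKM in control testes, 0.79 and 1.11 FPKM in cadmium testes, 0 in all control sperm pools, and 0 and 0.59 FPKM in cadmium sperm. Its 11 counts over all samples were 3 in control testes, 7 in cadmium testes and 1 in cadmium sperm. The control testes counts were given to its transcript of 1504 bases and all the others to that of 1378 bases.

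Spaca1 encodes a membrane protein of the inner acrosomal membrane that is needed to shape the acrosome (chr4:34024872-34050067). It measured 4.07 and 6.74 FPKM in control testes and 5.13 and 7.57 FPKM in cadmium testes, and was listed in none of the 6 sperm pools. At its share in testes, 29.0 counts would have been found in the 4767297 counts of the 6 pools. In control testes 2, 10.9 of its 19 counts were estimated for the transcript of 1177 bases, which no other sample listed, and the rest for that of 1073 bases.

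Spesp1 encodes the equatorial segment protein, which lies in the part of the acrosome that stays after exocytosis and takes part in fusion (chr9:62270729-62282179). It measured 2.93 and 2.32 FPKM in control testes and 3.30 and 2.36 FPKM in cadmium testes, from 18 to 28 counts a sample, and was at 0 in all 6 sperm pools. Its transcript is long, at 3013 bases, so over the 4 testes samples it drew 90 counts against 67 for Spaca1 at a lower FPKM. In control testes 2 and cadmium testes 2 it drew slightly fewer, 18 against 19 and 19 against 21. At its testes share, 38.9 counts would have been found in sperm.

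Zpbp and Zpbp2 encode 2 related proteins of the acrosomal matrix that bind the zona pellucida. Zpbp (chr11:11279624-11464223) measured 0.46 and 1.41 FPKM in control testes, 1.01 and 0.77 FPKM in cadmium testes, 2.47, 0.74, 0 and 0 FPKM in control sperm pools 1 to 4, and 0.90 and 0.83 FPKM in cadmium sperm. Its groups overlapped throughout, and the highest value of all was that of control sperm pool 1, from 4 counts. Zpbp2 (chr11:98551097-98558665) measured 1.26 and 1.11 FPKM in control testes and 0.56 and 0.53 FPKM in cadmium testes, and was at 0 in all 6 sperm pools, where 5.62 counts would have been found at its testes share. The 4 testes values rested on 5, 4, 2 and 2 counts. Those of cadmium testes 1 went to a transcript of 1300 bases and the others to one of 1428 bases.

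Zp3r encodes sp56, a matrix protein first found as a binder of the zona protein ZP3 (chr1:130547110-130629634). It measured 0.87 and 0.39 FPKM in control testes, 0.88 and 0.37 FPKM in cadmium testes, 1.41 FPKM in control sperm pool 2, from 3 counts, and 0 in the other 5 sperm pools. Spaca3 encodes a lysozyme-like protein of the acrosome (chr11:80858363-80867814) and was listed at 0.91 and 0 FPKM in control testes, 0.92 and 0.48 FPKM in cadmium testes, and 0 in sperm. Izumo1 encodes the sperm receptor for the egg protein Juno (chr7:45621811-45627242) and was listed only in control testes 2, at 0.80 FPKM from 3 counts. Spam1 encodes the hyaluronidase PH-20 (chr6:24791188-24801048) and was listed only in control testes 1, at 0.17 FPKM from 1 count. These values were at or under the floor of 3 counts in most samples, and of Acr, Spaca3, Zp3r, Izumo1 and Spam1 only Zp3r and Spam1 kept 1 order in all 4 testes samples, with Zp3r higher.

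By mean FPKM over the 4 testes samples the order was Acrbp at 23.5 ± 6.42 (SD, n = 4), Spaca1 at 5.88 ± 1.57, Spesp1 at 2.73 ± 0.473, Zpbp at 0.912 ± 0.401 and Zpbp2 at 0.865 ± 0.375. Acrbp was above Spaca1, and Spaca1 above Spesp1, in every testes sample, and Zpbp and Zpbp2 did not differ beyond their spread. In the 2 control testes samples the share of the 10 genes was 39.1 CPM (95% Wilson interval 32.5 to 47.0) and 57.6 CPM (49.1 to 67.5), so the replicates differed by more than counting error. Intervals and floors cover counting error only.

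**Figure D2:**
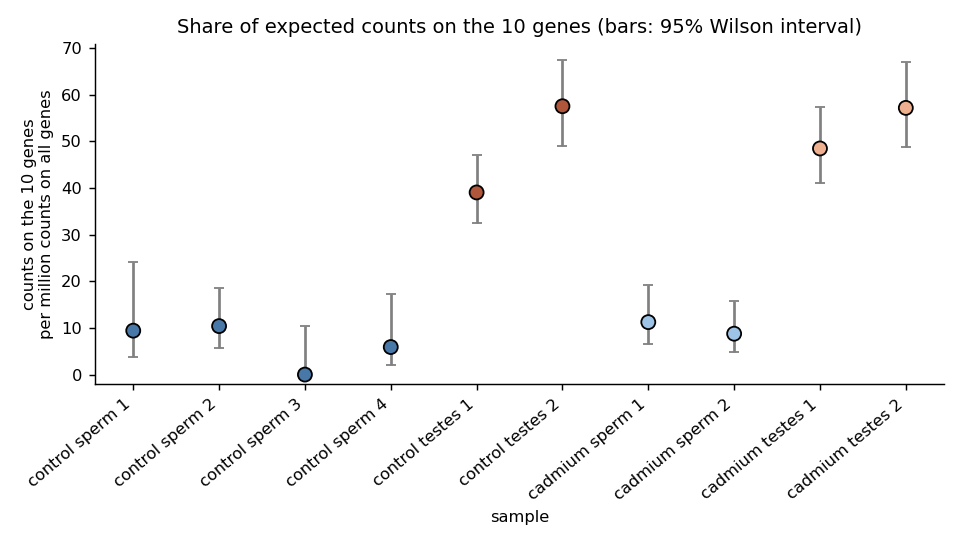
Counts on the 10 genes per 1000000 counts on all genes (CPM) in each sample, with 95% Wilson intervals as bars and the 4 groups as colours. The 6 sperm pools lie at 0 to 11.3 CPM and the 4 testes samples at 39.1 to 57.6.

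The first comparison set control sperm pools 2 to 4 against the 2 control testes samples, which asks how the RNA that mature sperm keep differs from that of the tissue that formed them. Pooled over samples, the share of counts on the 10 genes in sperm was 0.151 of that in testes (exact 95% interval 0.0816 to 0.259), from 14 and 262 counts. Leaving out control sperm pool 2, which held 11 of the 14, gave 0.0716. Acrbp was at 0.157 of its testes share (0.0666 to 0.318), from 8 and 144 counts. Spaca1 was at least 3.65-fold lower in sperm and Spesp1 at least 5.06-fold lower, both against a floor of 3 counts over the 3 pools. These folds took the testes shares as measured, and the exact 95% intervals of the ratios reached up to 0.358 and 0.254. Zpbp, with 3 and 19 counts, had a ratio of 0.447 (0.0847 to 1.52), and Zp3r, with 3 and 7 counts, one of 1.21 (0.203 to 5.32). The intervals of the last pair contain 1.

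In edgeR's quasi-likelihood test over genes of at least 1 FPKM in at least 2 of the 5 samples, calls needed both a more than 2-fold difference and an adjusted p (Benjamini-Hochberg, over all genes tested) under 0.05. Of the 10 members, 4 reached that filter. Spaca1, Spesp1 and Zpbp2 were at 0 in every sperm pool and reached it only through testes, which fixed the direction of any call. Spaca1 and Spesp1 had an adjusted p of 0.0467 each, and without the filter 0.133 and 0.115, so their calls rested on the filter. Among the NM_ genes tested 20.2% were called lower, and among all genes 17.8%. Acrbp had a log2 fold change of -2.99 (SE 1.34) and an adjusted p of 0.0997, and Zpbp2 an adjusted p of 0.0615. Zpbp2 was called with limma and with NM_ genes alone, and Acrbp in 1 model of 9 samples. The median log2 fold change of all genes tested was itself -1.24, and -1.11 with total counts in place of TMM factors, where 1065 genes were called higher and 1669 lower against 1024 and 4345. Across members, 4 of 10 (Acrbp, Spaca1, Zpbp2 and Spesp1) had every sperm value below both testes values, as had 40.8% of the NM_ genes listed in the comparison and 35.5% of all genes. The share of members was near that background. Neither call survived in DESeq2 or without the FPKM filter, and both were lost without control sperm pool 2 or without pool 4. Without pool 3 the call of Spesp1 stayed and that of Spaca1 was lost. With either testes sample left out neither gene reached the filter.

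The same comparison in cadmium-exposed mice, 2 sperm samples against 2 testes samples, rested on fewer but deeper sperm libraries. The share of the 10 genes in sperm was 0.189 of that in testes (exact 95% interval 0.119 to 0.287), from 24 and 293 counts. Acrbp was at 0.203 of its testes share (0.111 to 0.345), Spaca1 at least 5.21-fold lower and Spesp1 at least 6.80-fold lower. The exact upper limits of the ratios of Spaca1 and Spesp1 were 0.249 and 0.188. Zpbp was at 0.971 of its testes share (0.368 to 2.32), from 8 and 19 counts. In edgeR Acrbp had a log2 fold change of -2.11 (SE 0.652) and an adjusted p of 0.00627. Spaca1 and Spesp1, at 0 in both sperm samples, again reached the filter only through testes. Their adjusted p of 0.00379 and 0.00138 came to 0.00378 and 0.00117 without the filter, where the 8 members listed here were tested and Acrbp, Spaca1 and Spesp1 were the 3 called lower. Of the NM_ genes tested 18.9% were called lower, and of all genes 15.4%. The median log2 fold change of all genes was -0.29, and -0.55 with total counts, where 3191 were called higher and 3700 lower against 4191 and 3977. In 7 of the 8 members listed here both sperm values were below both testes values, Zpbp being the exception, as in 34.4% of NM_ genes and 31.3% of all genes. Among the 7, Acr, Spaca3, Zpbp2 and Zp3r had only 7, 3, 4 and 7 counts in testes, and their exact 95% intervals contained 1. The call of Acrbp was lost when cadmium testes 1, cadmium testes 2 or cadmium sperm 2 was left out (adjusted p 0.0626, 0.169 and 0.0719, edgeR). With either testes sample left out Spaca1 and Spesp1 did not reach the filter and were not tested.

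Over all 6 sperm pools and all 4 testes samples, Spaca1 was at least 9.66-fold lower in sperm, Spesp1 at least 13.0-fold and Zpbp2 at least 1.87-fold. The exact upper limits of these ratios were 0.131, 0.0968 and 0.759. Acrbp was at 0.169 of its testes share (0.106 to 0.259) and Zpbp at 0.913 (0.467 to 1.70). Every sperm value was below every testes value for 4 of the 10 members, against 18.5% of the NM_ genes and 14.7% of all genes. Of the 6 members above 0 in all 4 testes samples, Spaca1, Spesp1 and Zpbp2 were listed in no sperm pool, against 16.3% of such NM_ genes. At least 1 sperm pool listed 4 of the 10 members, against 66.5% of all NM_ genes. Of the haploid spermatid markers edgeR called 4 of 10 lower in control and 4 of 9 in cadmium mice, with 0 higher, against 20.2% and 18.9% of NM_ genes. Tnp1 was at 0.0308 of its testes share in control and 0.0448 in cadmium mice, Prm1 at 0.0474 and 0.178, and Prm2 at 1.35 and 1.83. The summed spermatocyte markers, apart from cadmium sperm 1, were also lower in sperm than in testes, as given above. So were the summed spermatogonial markers, mostly through Gfra1. In cadmium mice Uchl1, Zbtb16 and Sall4 of that list had a higher share in sperm, from 3, 2 and 1 counts against 1 each in testes. The part of any of these cell types in the differences was not tested.

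**Figure D3:**
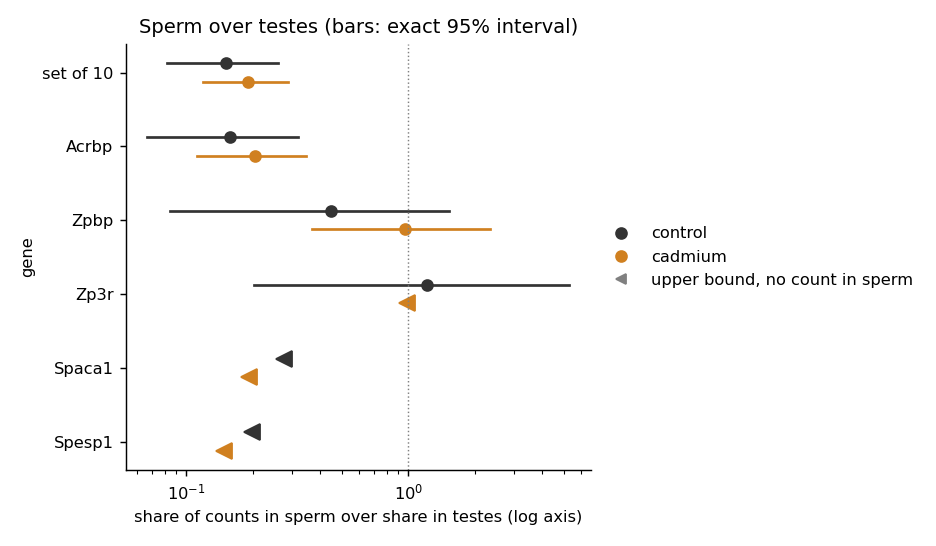
Share of counts in sperm over share in testes, on a log axis, for the 10 genes together and for 5 single genes. Control mice are dark and cadmium-exposed mice orange. Bars are exact 95% intervals. Left-pointing triangles are upper bounds at a floor of 3 counts where sperm had no count, and leave out counting error in testes. Acrbp sits at 0.157 and 0.203, and the Zpbp intervals contain 1 in both arms.

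Cadmium was next compared with saline within testes. None of the 10 genes was called. Acrbp was at 15.8 and 27.6 FPKM in control and 20.8 and 29.9 in cadmium testes, a log2 fold change of 0.26 (SE 0.53), and Spaca1 and Spesp1 gave 0.24 (SE 0.66) and 0.17 (SE 0.56). Zpbp gave -0.06 (SE 0.78) and Zpbp2 -1.07 (SE 1.08). All 5 members that reached the filter had an adjusted p of 1.00 in edgeR, and none had an unadjusted p under 0.05. Of all genes 0.0225% were called. Pooled counts gave cadmium over control ratios of 1.16 for Acrbp (exact 95% interval 0.926 to 1.46), 1.14 for Spaca1 (0.688 to 1.91), 1.08 for Spesp1 (0.697 to 1.67) and 0.985 for Zpbp (0.494 to 1.97), and 1.10 for the 10 genes together (0.930 to 1.31). Zpbp2 was the 1 member whose groups did not overlap downwards, from 9 counts to 4, with a ratio of 0.438 (0.0985 to 1.57); such a gap was found in 11.2% of NM_ genes and 9.40% of all genes. For Acrbp and Spaca1 the direction turned when control testes 1 or cadmium testes 2 was left out. DESeq2 and limma called none of the 10 either.

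**Figure D4:**
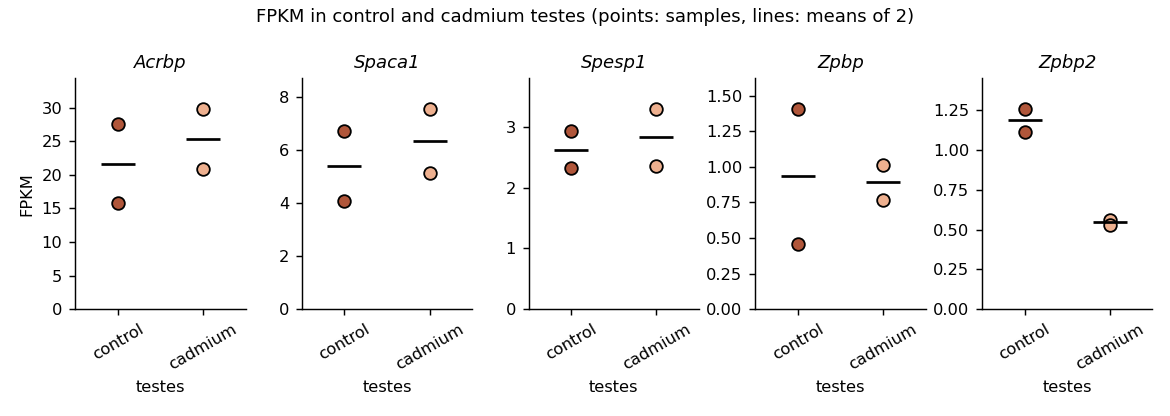
FPKM of 5 genes in the 2 control and the 2 cadmium testes samples (points), with the mean of each group as a line and a separate axis from 0 for each gene. The groups overlap for Acrbp, Spaca1, Spesp1 and Zpbp, and Zpbp2 lies at 1.26 and 1.11 in control against 0.56 and 0.53 in cadmium testes.

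In sperm, Acrbp alone reached the filter for the test of cadmium. It was at 3.86, 0 and 4.83 FPKM in control pools 2 to 4 and at 6.36 and 3.91 FPKM in cadmium sperm. The groups overlapped, and the log2 fold change of 0.69 (SE 1.98) had an adjusted p of 1.00 in edgeR, with 0.0824% of all genes called. Its unadjusted p was above 0.05, and neither DESeq2 nor limma called it. The median log2 fold change of all genes was 0.43. Without the filter Acr, Zp3r and Zpbp could be tested too, with unadjusted p of 0.498, 0.182 and 0.523 in edgeR, and none was called. Zpbp was at 0.74, 0 and 0 FPKM against 0.90 and 0.83. Both cadmium values were above those of pools 2 to 4, as in 17.4% of NM_ genes and 16.2% of all genes, and below that of pool 1. Its pooled ratio was 2.14 (exact 95% interval 0.513 to 12.5), from 3 and 8 counts. With control sperm pool 1 added, which alone held 4 counts, that ratio was 1.12. For the 10 genes together the ratio was 1.37 (0.683 to 2.87), and 2.90 without control sperm pool 2. Spaca1, Spesp1 and Zpbp2 were at 0 in both arms.

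Whether the cadmium effect differed between sperm and testes was tested as an interaction in a model of 9 samples. Past the filter it was estimated for Acrbp, at 0.35 on the log2 scale (SE 1.46), and for Zpbp, at 1.25 (SE 1.85), both with an adjusted p of 1.00 in edgeR and an unadjusted p above 0.05. Without the filter Acr and Zp3r had an unadjusted p of 0.477 and 0.138. Members at 0 in every sperm pool allow no such estimate. Of all genes 0.0396% were called, and no member was called by DESeq2 or limma.

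Other genes of the same processes were taken from 5 lists, whose counts stand beside the 20.2% of NM_ genes called lower in control and the 18.9% in cadmium mice. Called higher in sperm were 216 of the 4910 NM_ genes tested in control and 1059 of the 5080 in cadmium mice. Genes at 0 in the sperm of a comparison reached the filter only through testes, so their adjusted p without the filter is given as well. Among 13 other acrosomal proteins, 7 reached the filter in the control comparison, and 2 were called lower in sperm and 0 higher. These were Crisp2, a cysteine-rich secretory protein of the acrosome and the most abundant gene of this list, and Lypd4, a GPI-anchored protein needed for passage through the oviduct. Crisp2 measured 9.88 and 24.5 FPKM in control testes, 8.92 and 19.5 in cadmium testes, 0 in the 4 control sperm pools, and 1.22 and 1.69 in cadmium sperm. It was at least 15.3-fold lower in control sperm pools 2 to 4 than in testes (adjusted p 0.00833 in edgeR, 0.0202 without the filter), and in cadmium mice its log2 fold change was -3.09 (SE 0.808, adjusted p 0.000993). Lypd4, at 2.32 to 4.40 FPKM in testes and 0 in sperm, had an adjusted p of 0.0467 in control and 0.0275 in cadmium mice, and of 0.159 and 0.0438 without the filter, so the control call rested on the filter. The cadmium arm also gave 2 lower and 0 higher of 7 tested. DESeq2 called 1 of the list lower in each arm, and limma 5 or 6 in control and 5 in cadmium mice, with 0 higher.

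The list of zona binding and migration through the oviduct was divided. In control mice 7 of its 12 genes were tested, 4 called lower and 1 higher in edgeR, 1 lower and 1 higher in DESeq2, and 4 lower and 1 higher in limma. Adam1a, a fertilin subunit that is needed for ADAM3 to reach the sperm surface, was the gene called higher. It measured 172.0, 117.6, 97.5 and 91.7 FPKM in control sperm pools 1 to 4 and 153.4 and 77.0 in cadmium sperm, against 19.6 and 18.6 in control and 18.9 and 18.4 in cadmium testes. Its log2 fold change was 2.21 (SE 0.676, adjusted p 0.0223 in edgeR, 0.0732 without the filter) in control and 2.82 (SE 0.587, adjusted p 2.05e-05) in cadmium mice. Adam1b, its close paralog, was at 12.4 and 12.8 FPKM in control testes and 0 in control sperm pools 2 to 4, at least 23.1-fold lower (adjusted p 0.00189, and 0.00646 without the filter), with 18.8 FPKM in pool 1, which was not tested, and 2.21 and 3.99 FPKM in cadmium sperm. How the counting divided fragments that fit both paralogs is not given in the sources used here. Adam3, which migration needs, was at 2.07 to 3.02 FPKM in testes and 0 in all sperm pools (adjusted p 0.0467 in control and 0.00496 in cadmium mice, and 0.116 and 0.00507 without the filter). In cadmium mice 3 of 6 tested genes were called lower and 2 higher in edgeR, against 2 and 2 in DESeq2 and 2 or 3 and 1 in limma, the second being Ace, the angiotensin-converting enzyme, whose short form is made in germ cells.

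Of 10 genes of acrosomal exocytosis, 3 were tested in control mice, with 1 called higher in sperm and 0 lower. Syt6, a synaptotagmin of the acrosomal membrane, measured 46.7, 38.3, 57.2 and 61.5 FPKM in control and 23.7 and 69.4 in cadmium sperm, against 1.42 and 9.07 in control and 3.10 and 16.9 in cadmium testes (log2 fold change 2.86, SE 0.970, adjusted p 0.0423 in edgeR, 0.128 without the filter). In cadmium mice 2 of 3 were called higher, Syt6 at 2.40 (SE 0.562) and the SNARE protein Vamp2 at 3.78 (SE 0.938). Vamp2 was at 5.67 and 4.48 FPKM in cadmium sperm and 0.66 and 0.17 in cadmium testes, from 26 and 5 counts. It reached the filter only through sperm, which favoured a call in that direction. DESeq2 called both Syt6 and Vamp2 too, and limma at most 1 of them. In the list of acrosome biogenesis, 0 of 5 tested genes were called in control mice by edgeR, where 1 had an unadjusted p under 0.05, DESeq2 called 1 higher and limma 0. In cadmium mice Csnk2a2, a catalytic subunit of casein kinase 2, was called higher in sperm at 2.80 (SE 0.643), and Actl7a, an actin-like protein of the developing acrosome, lower (adjusted p 0.0178, and 0.0253 without the filter), with 7 tested. DESeq2 called Csnk2a2 and not Actl7a, and limma Actl7a and not Csnk2a2. Atg7, a component of the autophagy pathway and the most abundant gene of the list, gave 0.53 (SE 0.95) and 0.74 (SE 0.55), neither called. Of 9 other fusion factors, 3 were tested in control mice and Izumo3, at 0 in sperm, was called lower by edgeR (adjusted p 0.0467, and 0.179 without the filter) and limma and not by DESeq2, which gave it no adjusted p, and in cadmium mice 0 of 2 were called by edgeR, DESeq2 or limma, with 1 at an unadjusted p under 0.05. Its most abundant gene, 1700034O15Rik, was at 2.53 to 14.4 FPKM in testes and 0 to 2.46 in sperm. Cadmium against control called 0 genes of these 5 lists in testes and 0 in sperm by edgeR, where the unadjusted p was under 0.05 for 0 and 2 of them. DESeq2 also called 0 in both, and limma 0 in testes and, at a pseudocount of 0.1, 2 higher in cadmium sperm, which were Crisp2 and Adam1b.

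**Figure D5:**
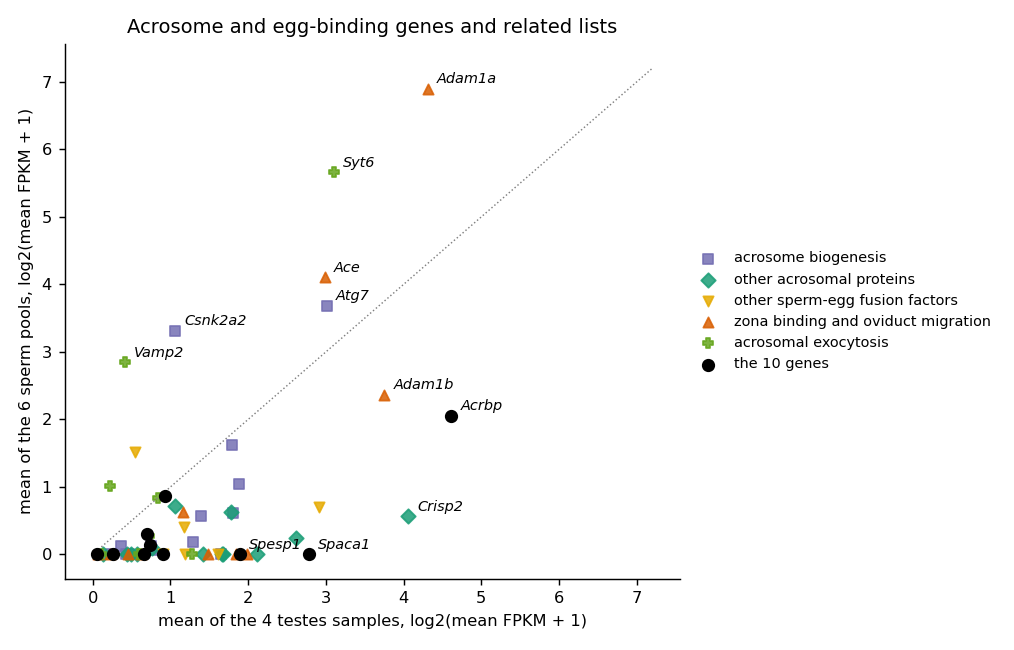
Mean of the 6 sperm pools against the mean of the 4 testes samples, both as log2(mean FPKM + 1), for the 10 genes (black) and the genes of 5 related lists (coloured marks); the dotted line marks equal values. Adam1a, Syt6, Ace, Csnk2a2 and Vamp2 lie above the line and Acrbp, Crisp2, Spaca1 and Spesp1 below it.

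The 10 genes were finally set against every NM_ gene of at least 1 FPKM in 2 or more samples by the Pearson correlation, over the 10 samples, of log2(FPKM + 1) with the mean standardised profile of the members. Among 6685 genes the most alike were Kcnn1 with r = 0.987, Zc2hc1c, Kcnk10, Kcnc2 and 4930548H24Rik, the last with r = 0.986. Of the members, Spesp1 ranked at 163 with r = 0.967, Spaca1 at 332 with r = 0.955, Zpbp2 at 489 with r = 0.943, Acrbp at 1456 with r = 0.853 and Zpbp at 4045 with r = 0.298. Members are part of the profile, and the samples share depth and tissue, so these values describe the pattern only.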

How the data were processed

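RNA of purified sperm and of testes was depleted of ribosomal RNA and sequenced strand-specifically. After removing adaptor, empty and low-quality reads, the authors used SOAPaligner/SOAP2 for alignment. The tables that the authors deposited, 1 for each sample, give estimated (expected) counts and FPKM of transcripts above 0. The submitters' processing notes also name HISAT and mm10. The tool that gave the expected counts is not given in the sources used here, and between 29.3% and 40.3% of the expected counts the authors deposited were not whole (tolerance 0.001). The FPKM that the authors deposited correct for the length of a transcript and for depth.

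Here, expected counts and FPKM were summed by gene within a class, a transcript that was not listed was taken as 0, and summed counts were rounded to whole numbers. Genes were tested with edgeR 4.0.16 (quasi-likelihood, TMM) in R 4.3.3 over the whole table, keeping genes with 1 FPKM or more in 2 or more samples compared, with Benjamini-Hochberg adjustment. The SE is the fold change divided by the root of F. DESeq2 1.42.0 and limma 3.58.1 on log2(FPKM + 1) or log2(FPKM + 0.1) were alternatives, beside other scalings, filters and sets of samples. Pooled ratios, exact and Wilson 95% intervals and figures were made with Python 3.11.15, scipy 1.17.1 and matplotlib 3.10.9. A group at 0 was given a floor of 3 counts over the group. Folds against that floor take the share of the other group as measured, so they leave out its counting error. The edgeR step was tested on simulated data. The genes changed in that simulation were chosen among well-counted ones, so it does not speak to members with few or no counts. Total counts of 366455 to 2866856 a sample limit the precision.

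All members are named, and from each other list the called genes with the largest and the smallest fold change and the gene with the highest mean FPKM, with values for those that the text turns on. Members and lists were chosen with earlier results of these data known.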

Additional observations from a re-analysis of the deposited data

Results flagged for a closer look

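In the 4 control sperm pools 1 value of a group of 4 stood far from the other 3, by Dixon's criterion at the 95% level, for 4 of the 10 genes that could be examined, members and genes named from the related lists. These were Zp3r at 1.41 FPKM in pool 2 with 0 in the others, 1700034O15Rik at 1.34 FPKM in pool 2 with 0 in the others, Adam1b at 18.76 FPKM in pool 1 with 0 in the others, and Atg7 at 32.97 FPKM in pool 3. Chance alone marks about 5% of such groups, and a group with 3 values at 0 is marked whatever the size of the fourth. Zpbp measured 2.47 FPKM in control sperm pool 1, which the tests left out, above 0.74 FPKM, the highest value of the other 3 pools.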

How the results depend on the processing

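The 10 members were counted again under each alternative. In control sperm against control testes the count of called members fell from 2 to 0 with total counts and no TMM factor, without the FPKM filter, with DESeq2, with samples thinned to equal totals and with the replicate number as a block and pool 1 added. It was 3 with NM_ genes alone and with limma at either pseudocount, where Zpbp2 was added, and in 1 model of 9 samples, where Acrbp was. With 1 sample left out in turn it was 0 to 1. In cadmium sperm against cadmium testes the count of 3 lay between 0 and 3 with 1 sample left out in turn and between 2 and 3 otherwise. The other comparisons kept a count of 0 throughout. The counts of called genes over the whole table moved too: 880 to 7129 against 5369 in control sperm and testes, and 1619 to 7976 against 8168 in cadmium.

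Over 211 alternatives for members in single comparisons, 176 kept direction and call, 19 lost the call, 4 gained it and 12 turned direction, none of these among called values. Cadmium in testes turned for Zpbp to 0.00797 and 0.0958 with limma at pseudocounts of 1 and 0.1, to 0.0305 after thinning and to 0.0927 under the replicate block, and without control testes 1 or cadmium testes 2 for Acrbp (-0.25 to 0.94 with 1 sample left out in turn) and Spaca1 (-0.28 to 0.93). The interaction of Acrbp turned without control sperm pool 3, control testes 2 or cadmium testes 1 (range -0.42 to 1.24), and that of Zpbp to -0.63 under the block. Alternatives chosen after seeing the data recomputed pooled ratios: with 1 sample left out, that of the 10 genes ranged from 0.0716 to 0.187 for sperm over testes in control mice, 0.916 to 1.35 for cadmium in testes and 1.11 to 2.90 for cadmium in sperm. The cause of these changes was not tested.

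Numbers in the labels share no stated litter or day, and no source says which control testes sample came from the mice of which sperm pool. Deviations of same-numbered samples correlated at 0.45 between the testes groups and at -0.07 to 0.09 elsewhere. Same-numbered testes samples of the 2 arms thus shared part of their deviation, and its source was not tested. The main tests took all samples as unpaired, and the replicate number entered as a block only as an alternative. In control mice the count of members called was 2 with pool 1 added and 0 with pool 1 and the block, in cadmium mice it was 3 with the block, and the other counts stayed at 0. Depth limits the sperm values: the 3 counts of the floor came to 1.55 CPM over control pools 2 to 4.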
